A study of Homo sapiens with 15 samples.

Results

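NR4A1 is an orphan member of the nuclear receptor family of transcription factors. It is encoded by an immediate early gene, binds as a monomer to a DNA element called the NBRE, and has the relatives NR4A2 and NR4A3. Together with NR4A3 it acts as a tumor suppressor of myeloid leukemia in mice. In mouse and rat skeletal muscle, forced expression of NR4A receptors raises genes of glucose and glycogen use. The comparison described here asked which transcripts moved when NR4A1 was supplied as RNA to acute myeloid leukemia cells. Emphasis was on transcripts that moved by less than 1.5-fold with dihydroergotamine (DHE), an ergot alkaloid drug that the study used to reactivate NR4A genes.

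MOLM-14 is a human acute myeloid leukemia cell line with an MLL rearrangement. The cells were electroporated with 100 nM of in vitro transcribed, polyadenylated RNA coding for GFP, a jellyfish protein that served as the control, or for NR4A1, and RNA was collected 6 h later from 2 samples of each. The same deposit holds 2 samples of MOLM-14 cells exposed for 6 h to vehicle (DMSO) and 2 exposed to 10 µM DHE; nothing states that these were electroporated, so GFP and vehicle cells differ in handling as well as in RNA. No source says whether the 2 samples of a group were separate cultures, so p-values measure only the spread between these samples, which may be technical. All 4 groups come from 1 cell line. These 4 GFP and NR4A1 samples are among 15 of the series, and the table lists 57964 entries (genes, by symbol), of which 13335 had at least 1 transcript per 1000000 transcripts (TPM) in at least 2 of these 4 libraries and were tested.

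TPM is a share of the RNA in a library, so the total is the same in each, sequencing depth is unknown and no counting error can be given. Fewer cells and less RNA per cell cannot be told apart in bulk samples. The library of GFP replicate 1 stood apart: 24.5% of its TPM fell on 5 entries related to ribosomal RNA, against 0.571% to 6.07% in the other 7 libraries. Each library was therefore rescaled by its median ratio to the geometric mean of all libraries. Levels below are scaled TPM unless stated otherwise, always in the order replicate 1 and 2, and differences are log2 of (scaled TPM + 0.5) with the standard error (SE) of limma, a linear model with a shared estimate of variance, and its Benjamini-Hochberg adjusted p. The added 0.5 understates differences of weakly expressed genes. The leukemia markers CD33, HOXA9, MEIS1 and FLT3 were at 17.6 to 21.1, 24.8 to 35.7, 24.1 to 36.6 and 74.7 to 97.6 TPM in the 4 libraries. Of the markers of other cell types, 0 of 9 of erythroid cells and platelets and 0 of 6 of fibroblasts reached 1 TPM in any of the 4, and HBB of erythroid cells was listed at 0. TRAC, of 7 T cell markers, was at 2.42 to 4.17 TPM in the 4 libraries, where the list summed to between 2.56 and 4.35, while CD3D was below 1. PAX5, of 6 B cell markers, was at 4.64 to 6.39 TPM, of a sum between 5.404 and 6.82. The 6 epithelial markers summed to 24.1 and 14.01 TPM with GFP and 5.23 and 5.22 with NR4A1 RNA, nearly all from MUC1 (difference -1.79, adjusted p = 0.107), while EPCAM was below 1. The part of these in the results was not tested.

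NR4A1 itself checked the labels. It was at 2.80 and 2.79 scaled TPM in the GFP libraries and at 720 and 699 in the NR4A1 libraries, against 1.22 and 1.67 with vehicle and 1.47 and 1.5 with DHE. Both NR4A1 libraries were far above the other 6. The difference was 7.75 ± 0.11 (SE, n = 2 per group, limma adjusted p = 5.92e-06), and the reads of the supplied RNA and of the cells' own gene cannot be told apart. NR4A2 was between 0.472 and 0.773 TPM in the 4 libraries and NR4A3 below 0.1 TPM in each, so neither was tested. Between DHE and vehicle, NR4A1 differed by 0.04 (limma adjusted p = 0.835). NR4A3 was at 0.191 and 0.258 TPM with DHE and 0.00492 and 0.00665 with vehicle. NR4A2 was at 0.629 and 0.964 TPM with DHE and 0.544 and 0.418 with vehicle. These levels of NR4A2 and NR4A3 are all below 1 TPM.

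With NR4A1 RNA, 386 entries rose and 330 fell at an adjusted p under 0.05 and a change over 1.5-fold. These 716 were 5.37% of the entries tested, 2.89% for rises and 2.47% for falls. Among them 167 rose and 97 fell more than 2-fold, and 45 rose and 25 fell more than 4-fold. The median difference was 0.92 for the rises and -0.82 for the falls, beside -0.02 over all entries tested. Of the rises, 72 passed the filter through the NR4A1 libraries alone, and 33 of the falls through the GFP libraries alone. GFP against vehicle gave 4 calls, all higher with GFP (0.03% of entries, either direction). In 377 of the 386 rises both NR4A1 libraries lay above all 4 GFP and vehicle libraries, as they did in 19.5% of all entries tested. In 303 of the 330 falls they lay below all 4, as in 20.7% of all entries. The calls were made on the NR4A1 and GFP values, so the GFP part of these counts was largely set by the calls. GFP replicate 1 was above replicate 2 in 75.5% of the falls and in 37.0% of the rises, against 50.5% of all entries. The part of that library in the falls was not tested separately. Its removal is given next for all calls together and not for the falls alone, and it leaves a single GFP library.

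The number of calls depended on single libraries, while no called entry changed direction in those of the 25 alternative analyses that tested it. Of the 716, 501 were tested with a filter of 5 TPM and 591 with 1 TPM in all 4 libraries. Other fold limits and the robust variance model leave each difference as it was, so direction could not change there. The 716 calls became 429 without GFP replicate 1 and 1535 without GFP replicate 2. They became 147 and 101 without NR4A1 replicates 1 and 2, and 477 and 480 without vehicle replicates 1 and 2, which enter through the shared variance. When GFP replicate 1 and DHE replicate 2, the libraries with the highest shares on those 5 entries (24.5% and 6.07%), were both left out, a choice made after seeing the data, 699 entries were called (373 higher and 326 lower) and 504 of the 716 were among them. Of 126 genes named by rule, 34 kept their call under every alternative that tested them. They include NR4A1, TREM2, SEMG1, ENO3, CTSL, TUBA8, CD83, GPR183, IL7R, HERPUD1, DNAJB9, HSPA13, ETV4, GABRA4, IDH1, GBE1, STAT5A, PRDM1, F3, NACC2, CCR2, ALDH1A3, P2RY2, ST3GAL4 and AXL.

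Among the same 13335 entries, DHE against vehicle changed 2574 (19.3%; 1148 higher, 8.61%, and 1426 lower, 10.7%). Of the 386 entries raised by NR4A1 RNA, 162 also rose with DHE, 7 fell and 217 were not called. Of the 330 that fell, 168 also fell with DHE, 21 rose and 141 were not called. A missed threshold does not show an absent response. A gene was therefore taken as held with DHE only where the 95% confidence interval of its DHE difference lay inside 1.5-fold in either direction. Held thus means a change under 1.5-fold, and some held genes still had a DHE difference with a low adjusted p. This was true of 5264 entries (39.5% of those tested), and of 101 rises and 54 falls with NR4A1 RNA. The supplied NR4A1 was itself among the 386 rises, the 101 held rises and the 75 counted next. Within these 155, the NR4A1 difference minus the DHE difference passed a limma adjusted p of 0.05 in 75 rises and 39 falls. Over all entries 20.4% passed. The 155 were chosen on these same differences, so their count was largely set by the choice and gives no separate support. Leaving out either NR4A1 library brought the 155 to 33 or 22, leaving out vehicle replicate 1 or 2 brought them to 85 or 75, and leaving out GFP replicate 2 raised them to 505.

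**Figure D1:**
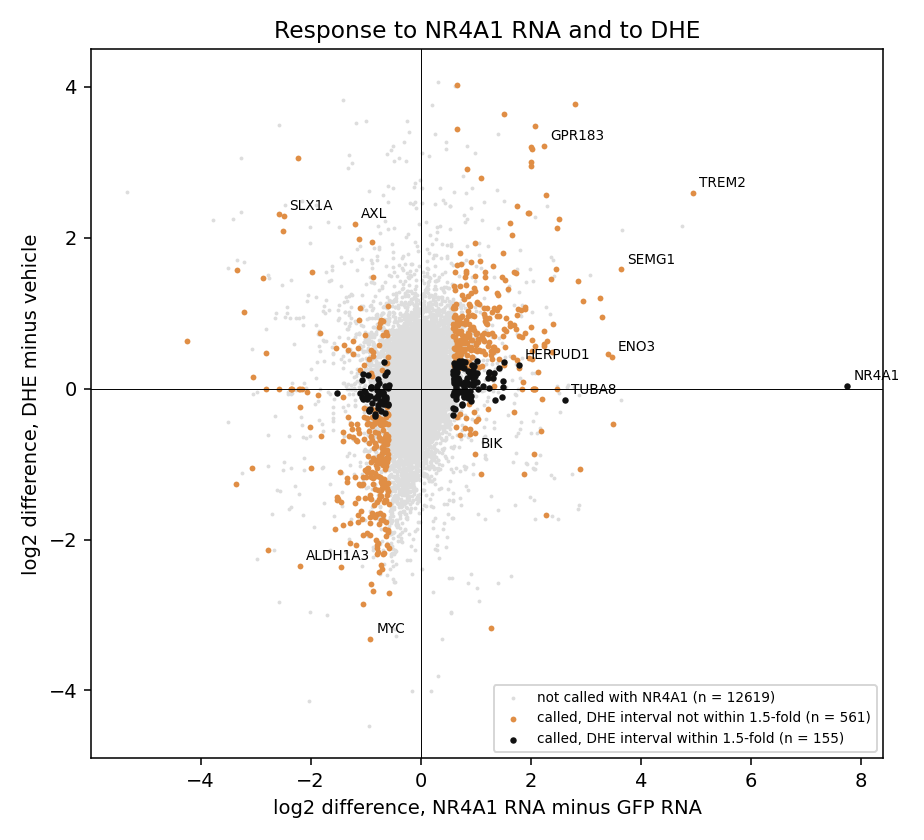
Log2 difference between NR4A1 and GFP libraries (horizontal) against log2 difference between DHE and vehicle libraries (vertical) for the 13335 entries tested, 1 point each. The 155 black points were called with NR4A1 RNA and had a DHE interval within 1.5-fold; HERPUD1 and TUBA8 lie among them at 1.78 and 2.63, while TREM2 at 4.95 also rose with DHE.

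The genes raised by NR4A1 RNA and held with DHE included enzymes, a tubulin and proteins of the endoplasmic reticulum. TUBA8, an alpha tubulin, was at 8.72 and 10.2 in GFP libraries and at 59.4 and 62.4 in NR4A1 libraries, and at 12.4 and 8.69 with DHE against 11.1 and 12.01 with vehicle. It rose 6.18-fold (log2 2.63 ± 0.16, adjusted p = 0.00131), and its DHE difference was -0.15 with an interval of -0.55 to 0.25. IDH1, the cytosolic isocitrate dehydrogenase that makes NADPH, was at 22.6 and 28.3 with GFP and at 69.2 and 67.5 with NR4A1 RNA, a rise of 1.42 ± 0.12 (adjusted p = 0.00273), beside 33.4 and 33.7 with vehicle and 43.3 and 38.0 with DHE. The NR4A1 libraries did not overlap those of any other group for either gene.

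ETV4, an ETS family transcription factor, rose from 6.30 and 5.94 to 17.8 and 18.5 (1.5 ± 0.08, adjusted p = 0.00106). GABRA4, a subunit of the GABA-A chloride channel, rose from 11.8 and 13.6 to 37.9 and 36.0 (1.51 ± 0.09, adjusted p = 0.00111). IMPA2, an inositol monophosphatase, rose by 1.33 ± 0.14 on the log2 scale, and ADORA2A, an adenosine receptor, by 1.35 ± 0.12. LAIR2, a secreted collagen-binding relative of the inhibitory receptor LAIR1, went from 0.930 and 0.721 to 3.38 and 3.003 (1.48 ± 0.18), and passed the filter through the NR4A1 libraries alone. The DHE differences of these 5 genes were between -0.16 and 0.36, the last for GABRA4 with a limma adjusted p of 0.021.

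The genes that fell with NR4A1 RNA and were held with DHE included a coagulation factor, transcriptional regulators and small GTPases. The median difference was -0.78 over the 54 held falls and 0.79 over the 101 held rises. F3, tissue factor, which starts blood coagulation, was at 35.1 and 36.2 in GFP libraries, 16.8 and 16.6 in NR4A1 libraries, 32.7 and 32.0 with vehicle and 35.6 and 34.2 with DHE. It fell by 1.07 on the log2 scale (SE 0.06, adjusted p = 0.00105), and only the NR4A1 libraries stood apart. POU2F2, the lymphoid octamer factor OCT2, was at 3.63 and 4.13 with GFP and at 0.926 and 1.12 with NR4A1 RNA (-1.53 ± 0.15, adjusted p = 0.00482). Vehicle cells had 1.77 and 1.70 of it, so the GFP libraries were high for this gene. The difference from vehicle was smaller and did not pass (-0.56, limma adjusted p = 0.0713).

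NACC2, a BTB-domain repressor, fell by 1.03 (SE 0.07), from 17.4 and 16.1 to 7.67 and 8.18, and stayed between 14.8 and 15.3 in the vehicle and DHE libraries. CCNA1, the germ cell and leukemia cyclin A1, was at 5.22 and 6.38 with GFP and at 2.46 and 2.48 with NR4A1 RNA. RAB27A and RAB3D, small GTPases of secretory vesicles, differed by -0.98 ± 0.15 and -1.05 ± 0.14. The Wnt ligand WNT10B (-1.02), the mitochondrial carrier SFXN3 (-1.05), the ubiquitin ligase TRIM9 (-0.98) and the homeobox factor ONECUT2 (-1.10) complete the 10 largest held falls. Against vehicle, ONECUT2 differed by -0.47 (limma adjusted p = 0.185) and SFXN3 by -0.53, and GFP was above vehicle by 0.63 and 0.51. Of the 20 held genes chosen by rule, 9 kept their call under every alternative. Both counts include NR4A1, whose RNA was supplied.

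**Figure D2:**
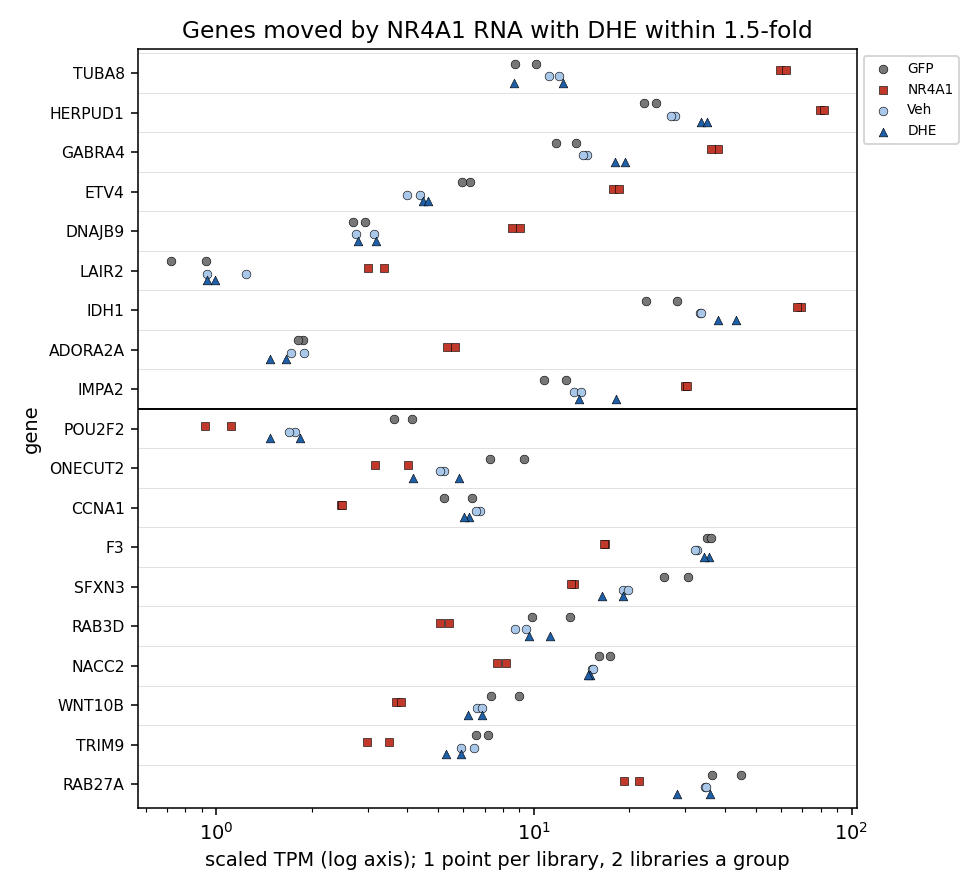
Scaled TPM (log axis) of the 9 rises other than NR4A1 (above the line) and 10 falls (below it) chosen by rule among genes held with DHE; each point is 1 library. For TUBA8, HERPUD1 and F3 the red NR4A1 squares lie apart from the GFP, vehicle and DHE points. For HERPUD1 the DHE points (33.5 and 35.0) lie above the vehicle points (27.8 and 26.9).

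The unfolded protein response is the program by which cells raise chaperones and degradation factors when unfolded proteins build up in the endoplasmic reticulum; its sensors include the proteins coded by ERN1 (IRE1), EIF2AK3 (PERK) and ATF6. Of 40 list members tested, 13 rose with NR4A1 RNA, none fell and 27 were not called, that is 32.5% called beside 5.37% of all entries. The median difference over the 40 was 0.46 beside -0.02 for all entries. In 29 of the 40 both NR4A1 libraries exceeded all 4 GFP and vehicle libraries, as in 19.5% of all entries. With DHE, 1 rose and 3 fell, beside 8.61% and 10.7% of all entries. By limma, 30 of the 40 had an unadjusted p under 0.05, beside 4038 of the 13335 entries tested. The 13 rises became 5 and 4 without NR4A1 replicates 1 and 2, and 12 without GFP replicate 1, and the list's median lay between 0.40 and 0.54 in all settings.

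HERPUD1, which helps remove misfolded proteins from the endoplasmic reticulum, was at 24.2 and 22.2 in GFP libraries and 79.6 and 82.0 in NR4A1 libraries, against 27.8 and 26.9 with vehicle and 33.5 and 35.0 with DHE. It rose 3.43-fold (log2 1.78 ± 0.07, adjusted p = 0.000291), and its response exceeded the DHE response by 1.46 (adjusted p = 0.00161). With DHE it rose by 0.32 (limma adjusted p = 0.0128), inside the 1.5-fold limit. DNAJB9, a co-chaperone that holds IRE1 in check, went from 2.71 and 2.94 to 8.55 and 9.07 (1.49 ± 0.11, adjusted p = 0.0018), with 3.20 and 2.79 under DHE. HSPA13, a microsomal HSP70 relative, went from 9.86 and 11.2 to 26.4 and 27.2, a rise of 1.31 ± 0.10. The NR4A1 libraries were above all others for each of these genes.

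ERN1 rose by 1.58 ± 0.19 and rose with DHE as well, by 1.32. FICD, which adds AMP to the chaperone BiP, rose by 1.12 ± 0.15, and MANF, a secreted factor kept in the endoplasmic reticulum, by 0.97 ± 0.07. SDF2L1, a partner of the ER co-chaperones, was at 12.7 and 12.8 with GFP, 23.3 and 25.3 with NR4A1 RNA, 16.5 and 16.2 with vehicle and 10.4 and 11.97 with DHE, so it was up with NR4A1 RNA (0.90, adjusted p = 0.00392) and lower with DHE (-0.53), and these responses differed (adjusted p = 0.00266). The disulfide isomerase PDIA4 (0.72), the degradation factors ERLEC1 (0.72), VIMP (0.79) and DERL2 (0.60), the co-chaperone DNAJC3 (0.70) and the prolyl isomerase FKBP14 (0.84) also rose. Against vehicle, PDIA4 differed by 0.35 (adjusted p = 0.0582) and ERLEC1 by 0.51 (adjusted p = 0.0507).

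Several widely used markers of this program were not among the calls. HSPA5, which codes for BiP, was at 49.5 and 33.3 in GFP libraries and 45.2 and 48.4 in NR4A1 libraries (0.20 ± 0.27, adjusted p = 0.632), so the NR4A1 values lay within the spread of the GFP pair. The difference was 0.49 (adjusted p = 0.0573) for DDIT3, which codes for the CHOP factor, 0.24 for ATF4, 0.14 for XBP1 and 0.05 for ATF6. EIF2AK3 differed by 0.85 ± 0.24 (adjusted p = 0.0766). TPM per gene do not report splicing of XBP1.

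Genes for entry into the endoplasmic reticulum and export from it also gave rises. Of 45 tested, 8 rose and none fell (17.8% called beside 5.37% of all entries), with a median of 0.34. An unadjusted limma p under 0.05 was found in 34 of the 45, beside 4038 of all 13335 entries. In 31 of the 45 both NR4A1 libraries were above all 4 control libraries, as in 19.5% of all entries. With DHE 3 rose and 1 fell, beside 8.61% and 10.7% of all entries. Two-sided limma adjusted p-values were 0.0049 for LMAN1, a cargo receptor for glycoproteins that went from 25.7 and 27.0 to 40.5 and 39.6 (0.60 ± 0.06), and 0.005 for TMED7, a cargo adaptor (0.62 ± 0.06). GOLT1B (0.98), the fusion proteins BET1 (0.81) and STX5 (0.60), the translocon subunit SEC61G (0.88), the signal peptidase subunit SEC11C (0.60) and the COPII coat protein SEC23A (0.61) completed the calls. SEC61G was at 42.1 in GFP replicate 1 and 67.2 in replicate 2, beside 97.5 and 99.8 with NR4A1 RNA. Against vehicle the differences of SEC61G (0.43), SEC11C (0.26), SEC23A (0.34) and GOLT1B (0.49) did not pass (limma adjusted p between 0.0887 and 0.245). None of 13 heat shock proteins of the cytosol and mitochondria passed in either direction (median 0.11). Of these 13, 5 had an unadjusted limma p under 0.05, beside 4038 of all 13335 entries. Of 18 amino acid starvation and CHOP genes none rose and 2 fell, the amino acid transporters SLC7A11 (-0.75) and SLC7A5 (-0.94). That is 11.1% called beside 5.37% of all entries.

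**Figure D3:**
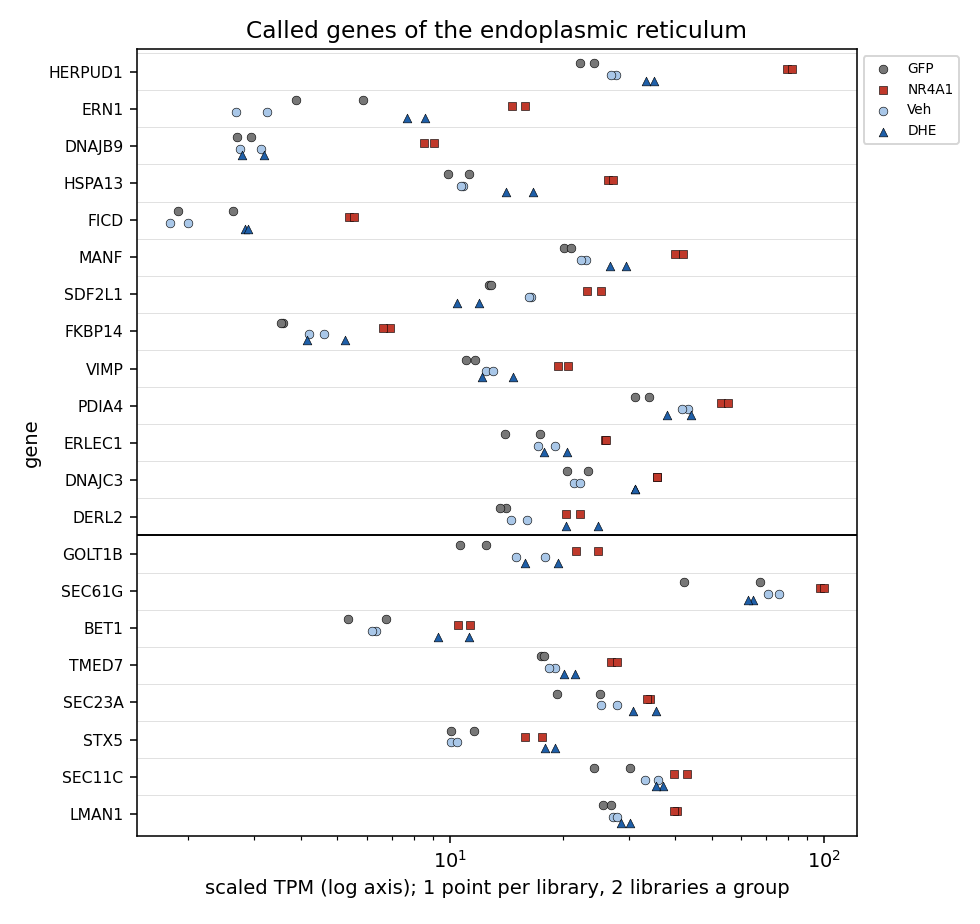
Scaled TPM (log axis) of the 13 called unfolded protein response genes (above the line) and 8 called transport genes (below it), 1 point per library. In each row both NR4A1 squares lie to the right of both GFP points, and for HERPUD1, DNAJB9 and HSPA13 also to the right of the vehicle and DHE points.

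Genes of glucose and glycogen use that NR4A receptors raise in rodent muscle were a second group. Of 15 listed, 7 were expressed enough to be tested, and 3 of them rose while none fell (42.9% called beside 5.37% of all entries). ENO3, the muscle enolase of glycolysis, was at 2.99 and 1.62 in GFP libraries and at 29.5 and 30.2 in NR4A1 libraries, beside 2.07 and 2.54 with vehicle and 3.15 and 3.35 with DHE. It rose 11.2-fold (log2 3.48 ± 0.23, adjusted p = 0.00147), by more than with DHE (difference 3.06, adjusted p = 0.00459). BPGM, which makes the hemoglobin ligand bisphosphoglycerate, went from 3.07 and 3.73 to 8.66 and 8.69 (1.24 ± 0.11, adjusted p = 0.00307) and was held with DHE at 0.22. GBE1, the glycogen branching enzyme, rose by 1.22 ± 0.09 and with DHE by 0.73. PFKM, the muscle phosphofructokinase, differed by 1.16 ± 0.28 with an adjusted p of 0.0535. By limma, 4 of the 7 had an unadjusted p under 0.05, beside 4038 of all 13335 entries. The median over the 7 genes was 1.16, and it ranged from 0.26 to 1.25 over the settings. By contrast, 19 glycolysis genes in use outside muscle had a median of 0.06. HK2, a hexokinase, fell by 1.15 and SLC2A1, the glucose transporter GLUT1, fell by 0.69, and none rose (10.5% called). An unadjusted limma p under 0.05 was found in 7 of the 19, beside 4038 of all 13335 entries.

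**Figure D4:**
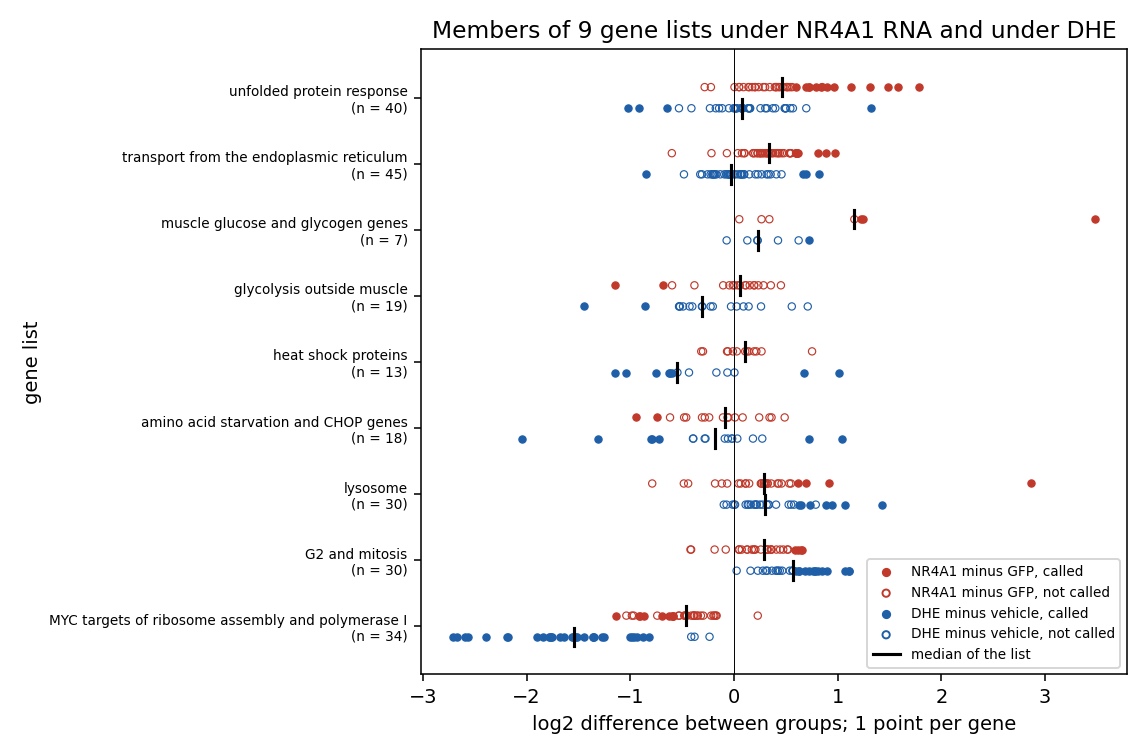
Log2 differences of the members of 9 gene lists for NR4A1 minus GFP (red) and DHE minus vehicle (blue), 1 point per gene, filled where called, with the list's median as a black bar. The unfolded protein response median is 0.46 with NR4A1 RNA and 0.08 with DHE, while the MYC target median is -0.47 with NR4A1 RNA and -1.54 with DHE.

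The largest rises after NR4A1 itself included surface receptors and secreted proteins of myeloid cells, and several of them rose with DHE too. TREM2, a lipid-sensing receptor of macrophages and microglia, was at 1.26 and 1.51 with GFP and at 56.9 and 58.1 with NR4A1 RNA, and at 11.95 and 12.15 with DHE against 1.49 and 1.69 with vehicle. It rose 30.9-fold (log2 4.95 ± 0.09, adjusted p = 1.41e-05) and its response was larger than that to DHE by 2.36 (adjusted p = 0.00135). TREML1, a platelet relative of TREM2, rose by 2.30 from below 0.04. SEMG1, known as a seminal gel protein, went from 0.481 and 0.461 to 11.5 and 11.7 (3.64 ± 0.12; filter passed through the NR4A1 libraries alone, as for TREML1), and CTSL, the lysosomal protease cathepsin L, from 1.29 and 2.11 to 15.5 and 14.9 (2.86 ± 0.20). CD83, a marker of mature dendritic cells, rose from 7.11 and 7.72 to 44.1 and 41.9 (2.46 ± 0.08).

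Of 22 immunoglobulin-type and lectin receptors tested, 7 rose and 1 fell (36.4% called beside 5.37% of all entries), 3 of the 7 rises passed the filter through the NR4A1 libraries alone, and the median of the list was -0.21. LAIR1, an inhibitory collagen receptor at 126 and 138 with GFP, rose to 200 and 208 with NR4A1 RNA (0.63 ± 0.07) and was at 110 in both DHE libraries, a difference between responses with an adjusted p of 0.00456. CLEC2D, a C-type lectin, rose by 1.82 ± 0.09. The Fc receptors FCGR2B (2.52) and FCGR2C (1.75) have near-identical copies whose reads may be split between them and are uncertain. FCGR2A, an activating Fc receptor, was at 14.6 and 14.9 with GFP and 11.9 and 12.1 with NR4A1 RNA, and at 52.4 and 49.4 with DHE.

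Cytokine receptors and their signal carriers moved in both directions. Of 28 receptors, 5 rose and 3 fell (28.6% called beside 5.37% of all entries), and 2 of the 5 rises passed the filter through the NR4A1 libraries alone. IL7R, the interleukin 7 receptor, rose from 2.79 and 2.77 to 13.2 and 12.2 (2.01 ± 0.13) and IL21R, the interleukin 21 receptor, from 1.36 and 1.15 to 6.33 and 6.87 (2.02 ± 0.14). IL7R rose with DHE as well (3.01), whereas IL21R was at 1.43 and 1.39 there and its responses differed (adjusted p = 0.0064). AXL, a receptor tyrosine kinase, fell against GFP RNA and rose with DHE: it was at 6.43 and 5.50 with GFP and 2.26 and 2.36 with NR4A1 RNA (-1.20 ± 0.09), but at 3.02 and 3.12 with vehicle and 15.7 in both DHE libraries (2.18). For AXL, GFP was above vehicle by 0.85, and the NR4A1 difference from vehicle was -0.35 (adjusted p = 0.0694). STAT5A, which carries signals of such receptors to the nucleus, rose from 11.4 and 12.4 to 29.2 and 30.2 (1.29 ± 0.08) and STAT3 by 0.78 ± 0.08.

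G protein coupled receptors had the highest share of calls of the lists with at least 5 genes tested: 6 rose, 9 fell and 12 of 27 were not called (55.6% called beside 5.37% of all entries, median -0.41). Of the 6 rises, 3 passed the filter through the NR4A1 libraries alone. CXCR4, the homing receptor for the chemokine CXCL12, was at 43.5 and 48.4 in GFP libraries, at 24.4 in both NR4A1 libraries, at 51.5 in both vehicle libraries and at 53.2 and 50.3 with DHE. It fell by 0.90 (SE 0.07, adjusted p = 0.00215) and was held with DHE. CCR2, the monocyte chemokine receptor, went from 5.80 and 6.54 to 1.27 and 1.08 (-1.997 ± 0.11, adjusted p = 0.00111), further than with DHE (-1.06; difference adjusted p = 0.0143). P2RY2, a receptor for extracellular ATP and UTP, fell by 1.44 with NR4A1 RNA, beside a DHE difference of -1.504. GPR183, the oxysterol receptor, rose from 11.6 and 14.5 to 64.6 and 62.3 and reached 106 and 103 with DHE. GPR146, an orphan receptor, was at 2.51 in both NR4A1 libraries and below 0.51 in the other 6.

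**Figure D5:**
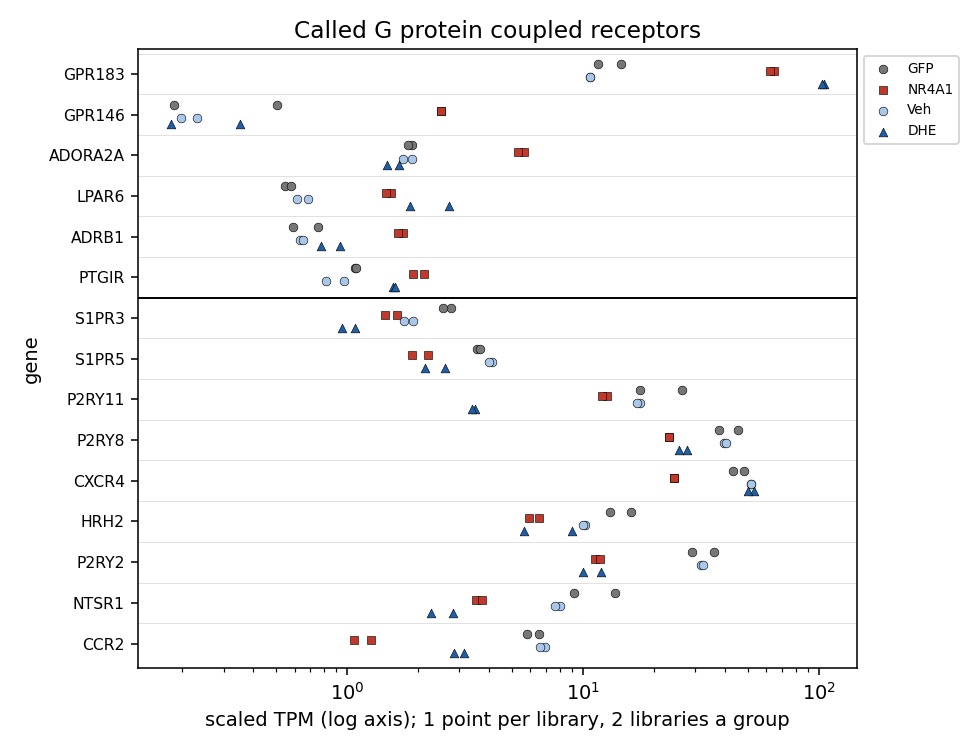
Scaled TPM (log axis) of the 6 called rises (above the line) and 9 called falls (below it) among G protein coupled receptors, 1 point per library. CXCR4 is low in the NR4A1 libraries (24.4) and between 50.3 and 53.2 in the vehicle and DHE libraries; GPR183 is highest with DHE.

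Among 35 myeloid and lymphoid transcription factors, 7 rose and 8 fell (42.9% called beside 5.37% of all entries). PRDM1, the repressor BLIMP1, went from 1.38 and 1.23 to 6.01 and 7.70 (2.02 ± 0.14), and the forkhead factor FOXO4 and STAT3 rose with it, as they did with DHE. SPI1, the myeloid master regulator PU.1, was at 44.99 and 31.3 with GFP and 18.2 and 18.0 with NR4A1 RNA (-1.04 ± 0.19, adjusted p = 0.0254); vehicle cells had 26.0 and 27.1, and GFP replicate 1 was the highest of the 8 libraries. BCL11A, a repressor of fetal globin genes, fell by 1.41, with 37.5 in GFP replicate 1 and 24.3 in replicate 2. Of 21 partners and cofactors of nuclear receptors, 4 fell and 1 rose (23.8% called beside 5.37% of all entries). RXRA, the retinoid X receptor that pairs with many nuclear receptors, fell from 37.8 and 33.4 to 17.7 and 19.01 (-0.94 ± 0.08, adjusted p = 0.00344). The corepressors TLE3 and TLE4 differed from GFP by -0.96 and 0.74. The list's median GFP minus vehicle difference was 0.33. Against vehicle RXRA differed by -1.07 (limma adjusted p = 0.00184). The other falls, TLE3 (-0.48), RCOR2 (-0.57) and RARG (0.14), did not pass against vehicle (limma adjusted p between 0.0589 and 0.598). TLE4 also rose with DHE, by 0.72 (limma adjusted p = 0.000893). None of 21 immediate early genes rose, and FOS (-0.77), FOSL2 (-0.78) and JUNB (-0.70), subunits of the AP-1 factor, fell. That is 14.3% called beside 5.37% of all entries. The median of these 21 was -0.32 for NR4A1 minus GFP and 0.32 for GFP minus vehicle, so the GFP libraries were above vehicle at the median. By limma, 13 of the 21 had an unadjusted p under 0.05, beside 4038 of all 13335 entries. Of the 14 classic NR4A targets of endocrine and nerve cells listed, 3 were tested. PRL, the pituitary hormone prolactin, went from below 0.07 to 1.51 and 1.95, and to 4.35 and 3.73 with DHE; it passed the filter through the NR4A1 libraries alone.

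Several of the largest falls rested on GFP libraries that were uneven or apart from vehicle. SLX1A, a nuclease subunit with the near-identical copy SLX1B, was at 18.0 and 8.10 with GFP, 2.08 and 1.45 with NR4A1 RNA, against 2.18 and 2.40 in vehicle cells, and 15.0 and 11.6 with DHE, so the NR4A1 libraries lay near vehicle (difference -0.31) and the GFP libraries near DHE. WNT7B, a Wnt ligand (-1.82), and the noncoding LINC01002 (-1.83) were likewise highest in GFP replicate 1, at 33.8 and 17.1. ALDH1A3, a retinaldehyde dehydrogenase that makes retinoic acid, was at 9.55 and 8.80 with GFP, 1.53 and 1.69 with NR4A1 RNA, 13.2 and 11.5 with vehicle and 2.16 and 1.88 with DHE. It fell by 2.20 with NR4A1 RNA (SE 0.11, adjusted p = 0.00105) and by 2.35 with DHE, and these did not differ at the threshold (adjusted p = 0.517). ST3GAL4, a sialyltransferase, fell with both by 1.53 and 1.43.

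MYC, the transcription factor that drives growth of these cells, was at 166 and 155 with GFP, 83.4 and 86.1 with NR4A1 RNA, 192 and 184 with vehicle and 18.6 and 18.1 with DHE. It fell by 0.92 (SE 0.06, adjusted p = 0.00157), less than with DHE (-3.32; difference adjusted p = 0.000824). Of 34 MYC targets of ribosome assembly and RNA polymerase I, 9 fell and none rose (26.5% called beside 5.37% of all entries, median -0.47). With DHE 31 fell, beside 10.7% of all entries. In 29 of the 34 both NR4A1 libraries lay below all 4 GFP and vehicle libraries, as in 20.7% of all entries. POLR1B, a core subunit of RNA polymerase I, went from 37.4 and 37.8 to 19.9 and 19.3 (-0.92 ± 0.08).

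Of 26 genes of cell death tested, 7 rose and 1 fell, beside 2.89% and 2.47% of all entries. With DHE 6 rose and 3 fell, beside 8.61% and 10.7% of all entries. BIK, which promotes apoptosis, rose from 33.2 and 31.7 to 64.3 and 64.4 (0.98 ± 0.06, adjusted p = 0.00131) and went the other way with DHE, from 34.1 and 32.2 to 18.5 and 17.6 (-0.86; difference adjusted p = 0.00115). BNIP3L, a mitophagy receptor (1.16), and RIPK3, a kinase of necroptosis (0.77), rose too. BCL2, which blocks apoptosis, fell by 0.66, and by 2.18 with DHE. Among 18 p53 targets none passed in either direction. By limma, 5 of the 18 had an unadjusted p under 0.05, beside 4038 of all 13335 entries.

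Promoters were searched for the NBRE, the octamer AAAGGTCA to which NR4A1 binds, on both strands in a window from 250 bases before to 50 bases after the transcription start in RefSeq (GRCh38.p14). A window was found for 279 of the 386 rises (72.3%), 214 of the 330 falls (64.8%) and 8869 of all entries (66.5%). Under 80% of each set had a window, so a comparison of shares between the sets is void. The octamer stood in 6 of the 279 windows of rises (2.15%), 0 of the 214 of falls and 68 of the 8869 (0.767%), beside 1.22% of all 35116 windows. For comparison the E-box CACGTG, a site of MYC, stood in 9.68%, 15.4% and 10.7% of the same windows, which is likewise void as a comparison. The 6 sequences are shown because they hold the receptor's own element at genes that rose, 5′ to 3′ along the gene's strand, with the octamer in capitals (TGACCTTT where it lies on the opposite strand) and up to 25 bases on either side. A match is a description of letters and does not show binding.
H6PD, chr1:9239740-9239797, plus strand: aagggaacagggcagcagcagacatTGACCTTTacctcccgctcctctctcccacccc
ANXA11, chr10:80205820-80205877, minus strand: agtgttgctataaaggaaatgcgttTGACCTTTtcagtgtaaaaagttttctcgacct
MCEE, chr2:71130287-71130344, minus strand: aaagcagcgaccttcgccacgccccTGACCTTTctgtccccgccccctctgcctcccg
EXO1, chr1:241848172-241848229, plus strand: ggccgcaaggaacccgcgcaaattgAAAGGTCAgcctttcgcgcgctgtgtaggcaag
AGMAT, chr1:15585059-15585116, minus strand: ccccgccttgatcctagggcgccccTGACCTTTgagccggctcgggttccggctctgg
PLEK, chr2:68365298-68365331, plus strand: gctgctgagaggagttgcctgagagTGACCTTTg

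Of these 6 genes, picked for the octamer in their window, H6PD, ANXA11 and MCEE were held with DHE. H6PD, the hexose-6-phosphate dehydrogenase of the endoplasmic reticulum, was at 5.85 and 4.83 with GFP and 9.75 and 10.2 with NR4A1 RNA (0.85 ± 0.10, adjusted p = 0.00796). ANXA11, a calcium-dependent membrane-binding annexin, went from 54.8 and 56.8 to 112 and 115 (1.02 ± 0.07, adjusted p = 0.00142), with 64.0 and 69.2 under DHE. MCEE, the methylmalonyl-CoA epimerase, rose by 0.92 ± 0.12, and differed from vehicle by 0.44 (adjusted p = 0.0685). PLEK, pleckstrin of platelets and leukocytes, rose from 25.6 and 29.5 to 104 and 103 and also with DHE (1.08), EXO1, a DNA repair exonuclease, rose by 1.05, and AGMAT, annotated as agmatinase, rose by 0.89 and fell with DHE by 0.60. In all 6 the NR4A1 libraries exceeded both GFP and both vehicle libraries, as in 19.5% of all entries. The 6 were picked from the 386 called rises, of which 377 did so, and the result was therefore largely set by that choice.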

How the data were processed

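RNA-seq of 8 MOLM-14 samples in 4 groups of 2 was analysed; the ChIP-seq samples were not used here. The authors depleted ribosomal RNA, made strand-marked libraries, sequenced them in paired ends, trimmed reads with Trim Galore, quantified transcripts with Salmon 0.11.0 against Gencode and deposited TPM per gene, which sum to 1000000 in each library. The submitters' processing notes name the build hg19. The log2 fold changes, p-values and adjusted p-values that the authors deposited beside the TPM, and their lists of selected genes, hold their own comparisons and were not used.

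Libraries were scaled by the median of ratios over entries with at least 1 TPM in all 8. Entries that reached 1 TPM in 2 or more of the GFP and NR4A1 libraries were fitted as log2(scaled TPM + 0.5) with limma 3.58.1 in R 4.3.3 (empirical Bayes with trend, 1 mean per group, 4 residual and 2.14 prior degrees of freedom). Calls were made at p below 0.05 after Benjamini-Hochberg adjustment with differences over 1.5-fold; the difference between responses used the adjusted p alone. Scripts were tested on simulated data. Where a symbol stood more than once (1449 entries), the entry with the highest mean kept it.

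Named genes were NR4A1; the 12 largest rises and falls whose mean reached 5 scaled TPM; the 10 largest rises and falls whose mean reached 2 that were held with DHE and whose responses differed; for each list the 5 (or fewer) called genes of lowest p; and defining markers of other cell types. Further genes in the text (uncalled members, other called members, and those with the NBRE) were chosen after their values were seen. The members and the gene lists were chosen with earlier results of these data known, so lists are described by counts and medians without a test. Replicate numbers did not pair the samples: correlations of replicate deviations between groups lay between -0.194 and 0.0367. Alternatives were other scalings, filters, pseudocounts, variance models and fold limits, a replicate block, and each library left out. Some results are not reported here.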

Additional observations from a re-analysis of the deposited data

How the results depend on the processing

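The main analysis called 386 higher and 330 lower, 155 held with DHE, 328 whose responses differed, and 13 higher unfolded protein response genes. Leaving out 1 library at a time gave 69 to 665 higher, 32 to 870 lower, 22 to 505 held, 40 to 913 differing and 4 to 15 unfolded protein response genes. Without rescaling 182 were lower, 98 held and 140 differed. In the 4 GFP and NR4A1 libraries alone 157 rose, 86 fell (64.6% of calls higher, beside 53.9%) and 8 of the unfolded protein response rose. A fold limit of 2 gave 167, 97, 28, 141 and 5, and no fold limit 683, 641, 431, 604 and 22, in the same order. With a replicate block 216 fell and 191 differed; it gave 510 calls in all, 501 of them among the 716. Upper quartile scaling gave 470 higher and 246 lower (65.6% higher). The causes of these shifts were not tested, apart from the fold limits, whose construction sets them. No called entry changed sign in those of the 25 alternatives that tested it. Of the 126 named genes, 21 lost their call in 8 or more, among them ABCA1, FGL2, HLA-DOB, LYZ, ITGAV, RCOR2, BCL11A and HK2. TPM keep no depth, so counting error in weak genes such as PRL or HGF could not be assessed.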

Other observations

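Secreted signals, lipid genes and the cell cycle gave smaller groups. Of 19 chemokines and cytokines tested, 4 rose with NR4A1 RNA and none fell (21.1% called beside 5.37% of all entries). By limma, 11 of the 19 had an unadjusted p under 0.05, beside 4038 of all 13335 entries. CCL24 and HGF passed the filter through the NR4A1 libraries alone. CCL24, an eosinophil attractant, went from 0.952 and 0.799 to 4.74 and 5.85 scaled TPM (log2 difference 2.07). TNFSF10, the death ligand TRAIL, rose by 1.29, TGFA, a ligand of the EGF receptor, by 0.90 and HGF, hepatocyte growth factor, by 1.73. CCL24 rose further with DHE, to 10.9 and 8.91. Of 23 cholesterol synthesis genes, SQLE, squalene epoxidase, rose from 5.54 and 7.01 to 15.8 and 16.6, but was at 11.1 and 12.3 with vehicle; the list's median GFP minus vehicle difference was -0.42. PECAM1, an adhesion molecule of leukocytes and endothelium, rose from 23.5 and 18.9 to 78.5 and 90.6 and reached 82.8 and 91.5 with DHE. Of 30 genes of G2 and mitosis 4 rose and none fell with NR4A1 RNA, beside 2.89% and 2.47% of all entries. With DHE 14 rose, beside 8.61% of all entries.

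OAS2, an antiviral RNA sensor, and IRF9, a factor of interferon signaling, were among the few entries called between GFP and vehicle cells, by 2.43 and 1.91. The median GFP minus vehicle difference over 37 such genes was 0.49, beside 0.00030 over all entries, and 4 entries in all (0.03%) were called between these groups, all higher with GFP. With NR4A1 RNA against GFP RNA 4 of the 37 rose and 3 fell (18.9% called beside 5.37% of all entries). OAS1, a relative of OAS2, was at 1.19 and 1.42 with vehicle, 3.67 and 3.93 with GFP and 9.54 and 10.5 with NR4A1 RNA, whereas XAF1 was at 16.4 and 18.5, 26.2 and 23.2, and 13.4 and 12.8. Electroporation, the supplied RNA and DMSO cannot be told apart in the GFP to vehicle difference.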
